A study of Canis lupus familiaris with 20 samples.

Results

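The cytokine, chemokine and receptor genes of dog skeletal muscle were examined in 6 dystrophic and 4 normal dogs. Members were taken by the gene name in the array files. They are the names that start with CCL, CXCL, CX3C, CCR, CXCR, TNFSF, TNFRSF or an IL with a number after it, and the single names TNF, LIF, CSF1, CSF2, CSF3, OSM, IFNG and BIRC3, with IL15 left out. The rule found 119 probes for 100 genes, out of 42034 probes and 9313 distinct gene symbols on the array. No probe was named CSF1, CSF3 or OSM. A gene is called detected on an array where the scanner software marked a probe's signal in the channel of the dog as well above background. Of the 100 genes, 82 were detected on at least 1 of 20 arrays, 27 on at least 10 and 16 on all 20, while 18 were detected on none. A gene entered the tests if a probe was detected on both arrays of 2 or more dogs. This left 38 of 100 members (38%), against 59.8% of all symbols. Since a gene can pass through the dystrophic dogs alone, counts over these 38 genes are given as descriptions.

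RNA came from muscle, without a named muscle, of dogs aged 2 years. The 4 affected dogs and the 2 escapers carry the label of Duchenne muscular dystrophy, in which dystrophin is lost from muscle fibres, and escapers are dystrophic dogs with a mild course. The 4 normal dogs are the controls. Each dog was hybridised on 2 canine Agilent arrays with opposite dyes against 1 common reference, the RNA of 1 individual labelled normal. The labels name no genotype, treatment or relation between the dogs, and the value of a dog is the mean log2 ratio of its 2 arrays over the reference. Each of the 5 slides held 2 dogs of 1 group, so the escaper group and its slide cannot be told apart. In bulk muscle, fewer cells of a type and less RNA per cell cannot be told apart.

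Cytokines are small secreted proteins that carry signals between cells, and chemokines are the cytokines that draw leukocytes along a gradient. CC and CXC chemokines act on receptors that span the membrane several times and couple to G proteins, interleukins on receptor pairs that mostly signal through JAK kinases and STAT factors, and the TNF family on receptors that feed NF-kappaB and cell death. In dystrophic muscle, repeated fibre damage is followed by infiltration of macrophages and other leukocytes, by regeneration and by fibrosis, and these genes are studied there as messengers between fibres, immune cells and fibroblasts.

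The share of all probes detected on an array ran from 30.5% to 60.2%, and the highest was that of the Cy5 array of affected 4. It had 74 member genes detected, against 36 on the Cy3 array of the same dog. The other 18 arrays had 22 to 47, and both 47 were those of escaper 2. The 2 arrays of a dog correlated over the 38 members with r from 0.804 in normal 3 to 0.982 in escaper 2, a correlation across genes that share a reference. Of 8 skeletal fibre markers on the array, 7 were tested, among them TTN, MB and TNNT3, and each of the 8 was detected on at least 1 array. The mean log2 ratio of the 7 was −1.22, 0.81, 0.04 and 0.09 in affected dogs, 0.77 and −1.82 in escapers and 0.18, 0.26, 0.15 and 0.52 in normal dogs.

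**Figure D1:**
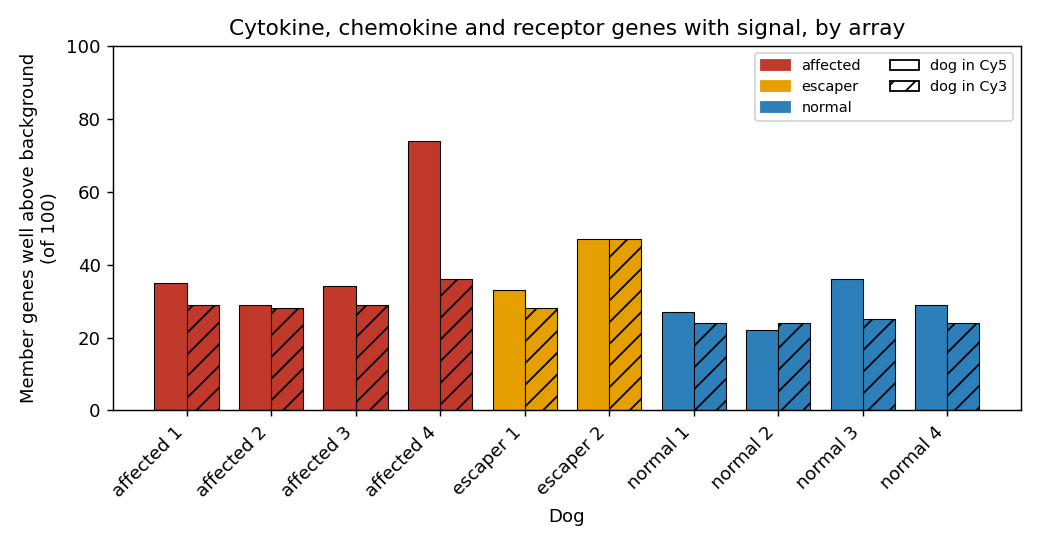
Bars give the number of the 100 member genes detected (signal well above background) on each array, from 0 to 100, with the dog in Cy5 (plain) or Cy3 (hatched) and colour for the group. The Cy5 array of affected 4 stands at 74, both arrays of escaper 2 at 47, and the normal arrays at 22 to 36.

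Probe letters are shown for genes whose reading depends on which probe is used or differed most between dogs. Positions are those of the array files, whose genome build the sources used here do not name. TNF has 3 probes on chromosome 12, and the first pair shares the 42 letters in capitals. The first lies at 4079134 to 4079193, the second at 4079116 to 4079175 and a distant one at 4079381 to 4079440, all on the plus strand.
TNF, probe with signal: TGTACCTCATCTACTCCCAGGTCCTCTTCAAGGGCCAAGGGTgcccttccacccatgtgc
TNF, overlapping probe: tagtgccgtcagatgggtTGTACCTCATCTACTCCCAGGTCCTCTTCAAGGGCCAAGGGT
TNF, distant probe: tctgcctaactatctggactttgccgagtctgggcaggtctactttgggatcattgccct
The first was detected on 19 of 20 arrays and each of the other 2 on 1.

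The probes shown for the CC chemokines CCL4 and CCL8 lie on the minus strand of chromosome 9. They span 41001749 to 41001808 and 42270999 to 42271482. Among the probes of CCL2, CCL3, CCL4, CCL5 and CCL8, the longest run of letters that any pair shared was 8, between CCL4 and CCL8, and is in capitals here.
CCL4: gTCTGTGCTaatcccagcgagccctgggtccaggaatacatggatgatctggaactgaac
CCL8: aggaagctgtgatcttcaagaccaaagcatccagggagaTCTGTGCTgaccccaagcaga
The IL6 probe spans 39435293 to 39436549 on the plus strand of chromosome 14 and the CXCR4 probe 41893808 to 41893867 on the minus strand of chromosome 19. They are shown because IL6 was detected on both arrays of 1 dog only and the dog means of CXCR4 separated the groups.
IL6: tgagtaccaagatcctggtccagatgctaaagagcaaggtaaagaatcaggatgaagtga
CXCR4: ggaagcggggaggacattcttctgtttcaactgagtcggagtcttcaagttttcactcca

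No member passed the threshold in any of the 4 comparisons (limma adjusted p under 0.05 over 16008 probes). All 6 dystrophic dogs lay above all 4 normal dogs in 5 of 38 members: IL17RA, CXCL14, CXCR4, IL10RB and TNFRSF1A. That is 13.2% of the members, against 3.55% of all probes, and no member lay below in the same way, against 5.04% (8.6% in either direction). These counts use the mean of the 2 arrays of a dog. Single arrays of the groups crossed in CXCL14, CXCR4, IL10RB and TNFRSF1A, and did not in IL17RA. Between all dystrophic and normal dogs, 33 of 38 differences were above 0 (86.8%, against 52.8% of all probes). Their median was 0.42 on the log2 scale, where that of all probes was 0.02, and the smallest adjusted p was 0.0633. At an unadjusted p under 0.05, 7 members were higher and 1 was lower (21.1%), where 8.29% of all probes were higher and 9.82% lower (18.1%), and 21 probes of any kind were called (0.131%).

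The median of the members moved with the dogs included. Without affected 4 and escaper 2, a choice made after the values were seen, it was 0.09. Without escaper 2 alone it was 0.20, and without affected 4 alone 0.38. Escaper 2 had the highest ratio of the 10 dogs in 26 of 38 members (68.4%, against 25.9% of all probes). Its ratio was above 1 on the log2 scale in 20 members (52.6%, against 9.43% of all probes), compared with 7 members in affected 4 and 0 to 2 in each other dog. Affected 1 had the highest ratio in 2 members (5.26%, against 24.9% of all probes). Members above all 4 normal dogs numbered 29 in escaper 2 (76.3%, against 40% of all probes) and 14 in escaper 1 (36.8%, against 23.3%). They numbered 8 in affected 1 (21.1%, against 37.6%), 21 in affected 2 (55.3%, against 28.3%), 19 in affected 3 (50%, against 28.6%) and 24 in affected 4 (63.2%, against 29.9%).

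**Figure D2:**
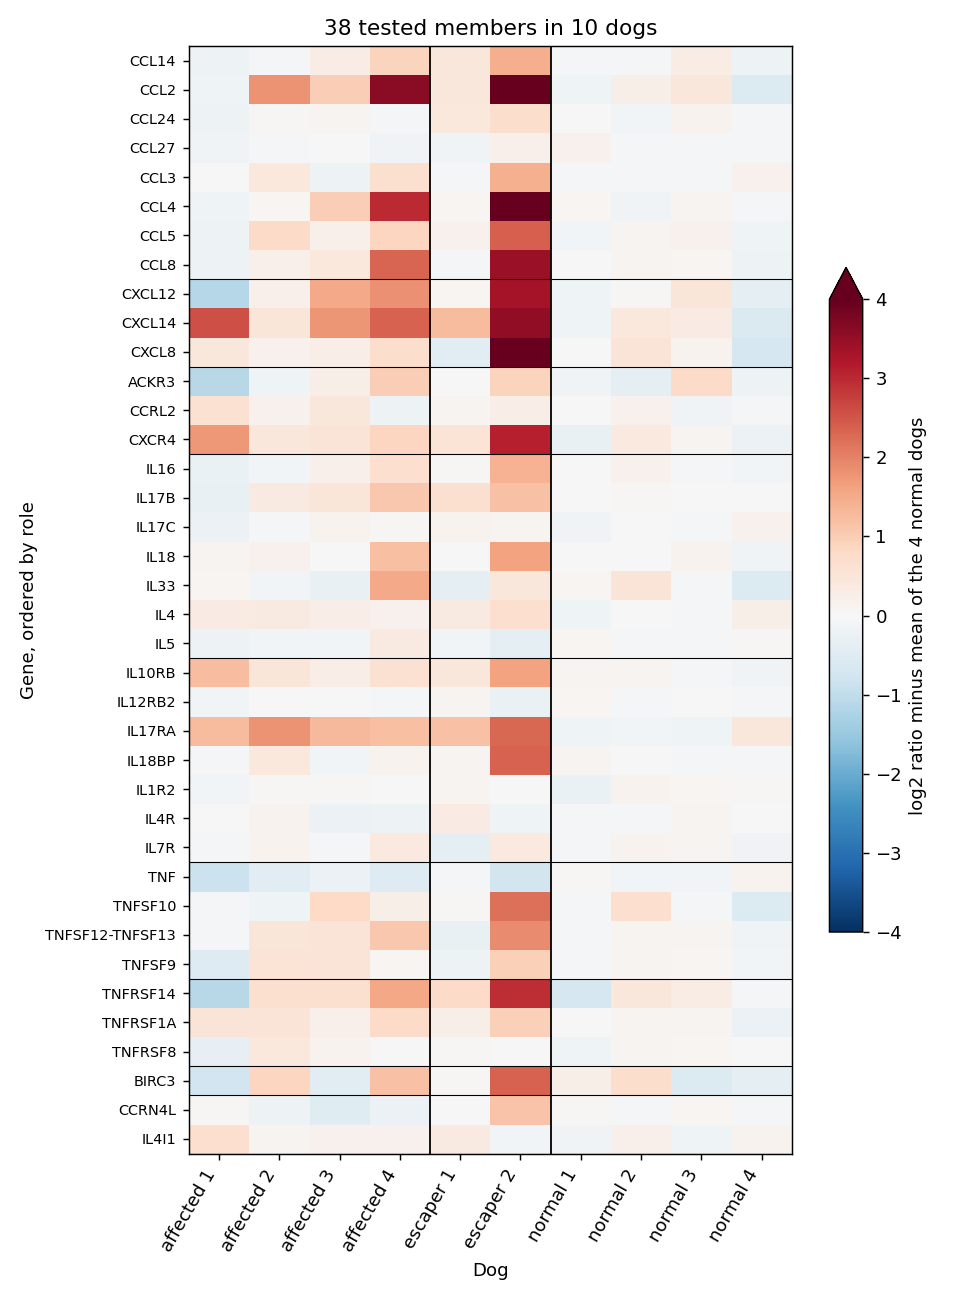
Colour gives the log2 ratio of each of 38 tested members minus the mean of the 4 normal dogs, with genes in rows by role and affected, escaper and normal dogs in columns. Values above 4 share the darkest red, which escaper 2 reached for CCL2, CCL4 and CXCL8. The column of escaper 2 is the reddest, the IL17RA row is red in all 6 dystrophic dogs, and the TNF row is blue or near white in them.

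The CC chemokines on the array number 18, of which 8 were tested. In all dystrophic against normal dogs, 7 of 8 differences were above 0 and none reached an unadjusted p under 0.05. In escapers against normal dogs, 8 of 8 were above 0 and 4 reached it, namely CCL2, CCL5, CCL14 and CCL24, where 9.67% of all probes were higher at that p (18.4% in either direction). CCL2, the monocyte attractant also called MCP-1, had log2 ratios of −1.82, 0.15, −0.66 and 1.98 in affected dogs, −1.19 and 4.49 in escapers and −1.80, −1.40, −1.17 and −2.18 in normal dogs. Escaper 2 and affected 4 were the highest, affected 2 and affected 3 were also above all normal dogs, and affected 1 and escaper 1 lay within the normal range. The difference of all dystrophic and normal dogs was 2.13 (SE 1.03, limma adjusted p = 0.307), and that of escapers and normal dogs was 3.29 (SE 1.38, adjusted p = 0.253). Without escaper 2 they were 1.33 and 0.44, and without escaper 1 they were 2.46 and 6.13. Each of these fits left 1 escaper in its group. The CCL2 probe was detected on 8 of 8 affected, 4 of 4 escaper and 2 of 8 normal arrays. A second CCL2 probe, which runs on the opposite strand, was seen on both arrays of escaper 2 and on no other.

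CCL4, or MIP-1 beta, an attractant of monocytes and T cells, showed the same pair of dogs. Its ratios were −0.43, −0.19, 0.72 and 2.73 in affected dogs, −0.18 and 4.25 in escapers and −0.19, −0.40, −0.15 and −0.31 in normal dogs. The dystrophic dogs differed from normal by 1.41 (SE 0.83, adjusted p = 0.39), and by 0.79 without escaper 2. The probe was detected on 4 of 8 affected, 2 of 4 escaper and 1 of 8 normal arrays, so most normal ratios are at background. On the 2 arrays of escaper 2 the ratio was 4.25 each, and on those of affected 4 it was 2.70 with the dog in Cy5 and 2.76 in Cy3. A second tested CCL4 probe, on the opposite strand, gave a difference of 0.59 with adjusted p = 0.422.

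CCL8, or MCP-2, had ratios of −0.66, −0.25, −0.04 and 1.87 in affected dogs, −0.53 and 3.01 in escapers and −0.44, −0.35, −0.36 and −0.66 in normal dogs. Affected 4 and escaper 2 were again highest, affected 2 and 3 lay above all normal dogs by less, and affected 1 and escaper 1 lay within the normal range. The probe was detected on 4 of 8 affected arrays, on the 2 arrays of escaper 2 and on no normal array. Escaper 1 had it detected on neither array, so the value of the escapers rests on escaper 2. On average the escapers were at least 3.23-fold and the affected dogs at least 1.60-fold brighter than normal (adjusted p = 0.329 and 0.715). Such bounds compare mean normalised log2 signals of the dogs' channels over all arrays of a group. A dim array enters with the lowest signal of any detected probe, or with the probe's own where that is higher, as it was here. Where the fold of the mean ratios to the reference was lower (for CCL8 the signals gave 3.53 and 1.67), that lower fold is given.

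CCL5, or RANTES, which attracts T cells and monocytes, was detected on 5 of 8 affected and 4 of 4 escaper arrays and on no normal array. The escapers were at least 2.37-fold brighter than normal (adjusted p = 0.245), with a ratio of 2.07 in escaper 2 and −0.13 in escaper 1. CCL3, or MIP-1 alpha, had ratios of 0.00, 0.40, −0.20 and 0.62 in affected dogs, −0.06 and 1.41 in escapers and −0.04, −0.08, −0.07 and 0.16 in normal dogs. It was detected on 3 of 8 affected, 2 of 4 escaper and 2 of 8 normal arrays. CCL14 was detected on all 20 arrays and was highest in escaper 2 at 0.70, followed by affected 4 at 0.14.

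CCL24, or eotaxin-2, an attractant of eosinophils, was the member with the smallest p between escapers and affected dogs. Its ratios were 0.50 and 0.78 in escapers, −0.13, 0.11, 0.18 and −0.01 in affected dogs and 0.08, −0.04, 0.23 and 0.03 in normal dogs. Both escapers lay above the other 8 dogs. The difference was 0.60 between escapers and affected dogs (SE 0.16, limma adjusted p = 0.8) and 0.57 between escapers and normal dogs (SE 0.16, adjusted p = 0.189). It was detected on 4 of 4 escaper, 1 of 8 affected and no normal arrays, and escapers were at least 1.39-fold brighter than normal. CCL24 thus entered the tests through the escapers alone, the group in which it is high, so its rank among the members is only a description. A second CCL24 probe was detected on 1 escaper and 1 affected array. CCL27, a skin chemokine, had ratios of −0.07, 0.02, 0.05 and −0.07 in affected dogs, −0.08 and 0.28 in escapers and 0.25, 0.03, 0.00 and 0.01 in normal dogs, and its largest difference was 0.12 (escapers against affected, adjusted p = 0.885).

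Of the 10 CC chemokines that were not tested, CCL1, CCL25 and CCL26 were detected on no array. CCL7, or MCP-3, was detected on both arrays of escaper 2 at a ratio of 0.62, with −0.02 to 0.02 in normal dogs. CCL21 was detected on both arrays of affected 1, at 0.51, against −0.14 to 0.20 in normal dogs. CCL17 was detected on both arrays of escaper 1, with ratios of −0.03 there and −0.63 to −0.18 in normal dogs. CCL13, CCL19, CCL20 and CCL28 were detected on 1 or 2 arrays.

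Of 6 CXC and CX3C chemokines, 3 were tested, and all 3 differences of dystrophic and normal dogs were above 0. CXCL8, also called IL8, is the main attractant of neutrophils. Its ratios were −1.56, −1.84, −1.75 and −1.32 in affected dogs, −2.45 and 5.43 in escapers and −1.99, −1.49, −1.88 and −2.68 in normal dogs. Escaper 2 stood alone, with 5.37 in Cy5 and 5.49 in Cy3, and escaper 1 lay among the normal dogs. CXCL8 was detected on 7 of 8 affected arrays, on the 2 arrays of escaper 2 and on no normal array. The escapers were at least 10.4-fold brighter than normal on average (adjusted p = 0.273). Escaper 1 had it detected on neither array, so this value rests on escaper 2. The reference RNA was detected on all 20 arrays at this probe, so the reference carried more CXCL8 signal than 9 of the 10 dogs.

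CXCL12, or SDF-1, the stromal chemokine that binds CXCR4, had 4 tested probes, each highest in escaper 2. At the brightest its ratios were −1.43, −0.08, 1.22 and 1.54 in affected dogs, −0.23 and 3.03 in escapers and −0.45, −0.25, 0.18 and −0.65 in normal dogs. Affected 1 was the lowest dog and affected 3, affected 4 and escaper 2 were above all normal dogs. The dystrophic dogs differed from normal by 0.97 (SE 0.70, adjusted p = 0.479), and by 0.36 to 0.69 at the other 3 probes. CXCL10, a target of interferon, was not tested, and was detected on both arrays of escaper 2 at a ratio of 1.21. CXCL13 was detected on no array and the fractalkine CX3CL1 on 1.

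CXCL14, a chemokine also known as BRAK, had the largest difference among the members whose dog means separated the groups. Its ratios were −0.06, −2.14, −0.86 and −0.27 in affected dogs, −1.35 and 0.91 in escapers and −2.81, −2.20, −2.29 and −3.20 in normal dogs. Affected 2 came closest to the normal dogs, by 0.06. Its single arrays, at −1.92 and −2.37, lay below the Cy3 array of normal 3 at −1.34. The difference was 2.00 in dystrophic dogs (SE 0.51, limma adjusted p = 0.139), 1.79 in affected dogs (SE 0.56, adjusted p = 0.279) and 2.41 in escapers (SE 0.68, adjusted p = 0.189). Without escaper 2 the last was 1.28. Without escaper 1 it was 3.54 and the first was 2.14. Each of these fits left 1 escaper in its group. It was detected on 8 of 8 affected, 4 of 4 escaper and 4 of 8 normal arrays.

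**Figure D3:**
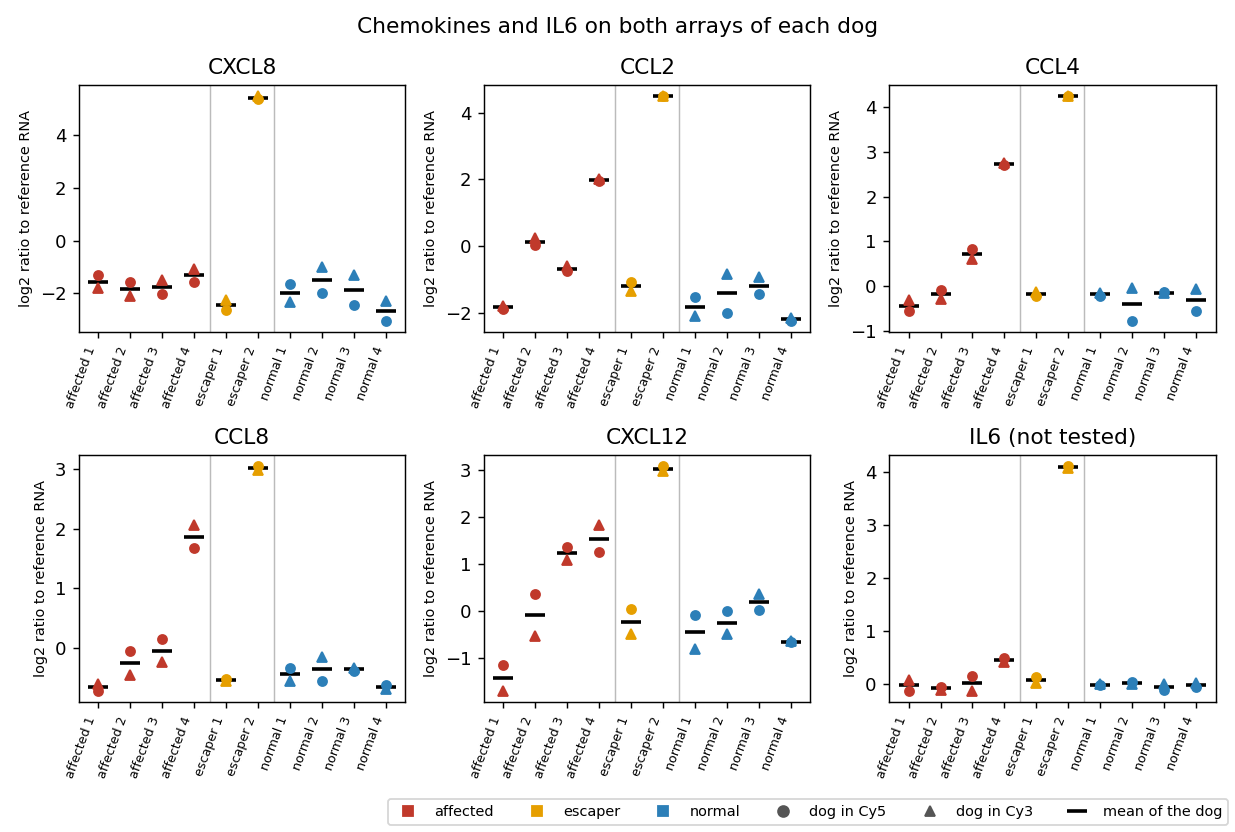
Panels give the log2 ratio to the reference RNA for 5 chemokines and IL6 in each dog, with the dog in Cy5 as circles, in Cy3 as triangles and the mean as a bar. Escaper 2 is the highest dog in every panel with both arrays together, affected 4 is second in all 6, and escaper 1 lies among the normal dogs in the 5 chemokine panels.

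Of 14 chemokine receptors, CXCR4, ACKR3 and CCRL2 were tested. CXCR4, the CXCL12 receptor of leukocytes and stem cells, separated the groups by the means of the dogs. It had ratios of 0.62, −0.66, −0.58 and −0.24 in affected dogs, −0.55 and 1.99 in escapers and −1.39, −0.71, −1.0 and −1.33 in normal dogs. Normal 2 and affected 2 were 0.05 apart, and their arrays crossed, with −0.40 in Cy3 of normal 2 and −0.70 and −0.62 in affected 2. The difference was 1.20 in dystrophic dogs (SE 0.45, limma adjusted p = 0.221), and the probe was detected on all 12 dystrophic arrays and 3 of 8 normal ones. ACKR3, the scavenger receptor of CXCL12 that the files call CXCR7, ranged from −0.87 in affected 1 to 1.23 in affected 4 and differed by 0.14 (SE 0.40, adjusted p = 0.877). CCRL2, an atypical receptor that binds chemerin, differed by 0.23 (SE 0.16, adjusted p = 0.456). The other receptors, among them CCR6, CCR7, CXCR3 and CXCR5 of lymphocytes, were too dim to test. CCR7 was detected on no array, CCR6 on 3, and CXCR3 and CXCR5 on 1 or 2 each.

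The interleukins and other cytokines number 25, and 7 were tested. IL4, the cytokine of type 2 immunity, had ratios of 0.11, 0.15, 0.05 and −0.05 in affected dogs, 0.16 and 0.45 in escapers and −0.38, −0.20, −0.28 and 0.02 in normal dogs. It differed by 0.36 in dystrophic dogs (SE 0.12, adjusted p = 0.187). This probe was detected on 20 of 20 arrays, while a second IL4 probe was so on 1. The values thus rest on 1 probe, and whether it reads IL4 alone was not tested. IL17B, a cytokine of the IL17 family, was detected on 10 of 12 dystrophic arrays and no normal array. On average the escapers were at least 1.87-fold (adjusted p = 0.209) and the affected dogs at least 1.32-fold brighter than normal (adjusted p = 0.544). Affected 1 had the lowest IL17B ratio of all dogs at −0.44, against −0.17 to −0.10 in normal dogs.

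IL18, a partner of IL12 in the induction of interferon gamma, was seen on both arrays of affected 4 and escaper 2 only. Its ratios were 1.08 and 1.49 there and −0.27 to 0.06 in the other 8 dogs. IL33, an alarmin released by damaged cells, had ratios of −1.28, −1.48, −1.66 and 0.14 in affected dogs, −1.72 and −0.92 in escapers and −1.28, −0.84, −1.44 and −1.90 in normal dogs. Affected 4 was the highest. IL33 was detected on no normal array, and the escapers differed from affected dogs by −0.25 (SE 0.49, adjusted p = 0.925).

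IL16, a T cell attractant, was highest in escaper 2 at 1.05 and affected 4 at 0.34, against −0.45 to −0.18 in normal dogs. IL17C differed by 0.01 (SE 0.12, adjusted p = 0.962). IL5, the growth factor of eosinophils, had ratios of −0.12 and −0.35 in escapers, −0.21, −0.10, −0.12 and 0.37 in affected dogs and 0.08, −0.05, −0.05 and 0.04 in normal dogs. The probe was detected on no escaper, 3 of 8 affected and 2 of 8 normal arrays, so most of these ratios are at background. Escapers were at least 1.12-fold dimmer than normal dogs (adjusted p = 0.503). A second IL5 probe was at background on 19 of 20 arrays.

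IL6, which fibres and leukocytes make in damaged muscle, was not tested because 1 dog alone had it on both arrays. Its ratio was 4.08 in escaper 2, with 4.10 in Cy5 and 4.07 in Cy3, and 0.06 in escaper 1. It was −0.03, −0.08, 0.01 and 0.45 in affected dogs and −0.01, 0.02, −0.07 and −0.02 in normal dogs. Escaper 2 stood apart from the other 9 dogs and affected 4 was second. IL1A and IL1B, the alarm cytokines of the IL1 family, were likewise detected on both arrays of escaper 2, at ratios of 1.59 and 1.57. Normal dogs had 0.05 to 0.29 for IL1A and −0.16 to 0.19 for IL1B. Of 3 IL1B probes, 1 was detected on both arrays of escaper 2, 1 on 1 of them and 1 on neither. Interferon gamma (IFNG), IL3, IL13, IL19 and IL21 were detected on no array. IL10, an anti-inflammatory cytokine, was detected on 3 arrays, the growth factor CSF2 on 2, and IL2, IL12A, IL12B, IL17A, IL17F, IL22, IL23A and LIF on 1 each.

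The interleukin receptors and antagonists number 19, and 7 were tested. IL17RA, the receptor chain that binds IL17A, had the smallest p of all members in each comparison with normal dogs. Its ratios were 0.00, 0.55, 0.04 and −0.06 in affected dogs, −0.09 and 1.04 in escapers and −1.42, −1.38, −1.43 and −0.79 in normal dogs. All 6 dystrophic dogs lay above normal 4, the highest normal dog, by at least 0.70. The difference was 1.50 in dystrophic dogs (2.83-fold, SE 0.24, limma adjusted p = 0.0633), 1.39 in affected dogs (SE 0.27, adjusted p = 0.125) and 1.73 in escapers (SE 0.32, adjusted p = 0.179). It was detected on all 20 arrays. Without affected 1 the first was 1.55 and past the threshold (limma adjusted p = 0.0397). It was 1.34 without escaper 2 and 1.57 without escaper 1, in fits that left 1 escaper in its group.

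The IL17RA probe at 47843460 to 47843519 on chromosome 27 is not the only one. A second probe, at 47842414 to 47842473, was detected on 6 of 12 dystrophic arrays and no normal array, and dystrophic dogs were at least 1.21-fold brighter than normal (adjusted p = 0.219). The first probe ends with the 25 letters shown next, where capitals mark 9 letters that were picked because they recur on the array.
IL17RA, end of the probe: gggcagcttcaGTGGCTCAGcagtt
These 9 letters, on either strand, are found in 95 other probes (0.226% of the array). Of the 61 tested among them, 46 had a difference above 0 between dystrophic and normal dogs, where 52.8% of all probes had one. Their median was 0.20, against 0.02 over all probes. At an unadjusted limma p under 0.05, 13 of the 61 were higher, where 8.29% of all probes were. The part of these letters in the IL17RA result was not tested.

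IL10RB, the second chain of the receptors of IL10 and IL22, had ratios of 0.64, −0.10, −0.33 and 0.01 in affected dogs, −0.14 and 1.01 in escapers and −0.49, −0.48, −0.67 and −0.74 in normal dogs. The gap between the dog means of the groups was 0.15, from affected 3 to normal 2. By single arrays they touched, with −0.35 in Cy5 of affected 3 and −0.32 in Cy5 of normal 1. IL10RB was detected on all 20 arrays and differed by 0.78 in dystrophic dogs (SE 0.25, adjusted p = 0.173). IL18BP, which binds and blocks IL18, was 1.93 in escaper 2 and −0.32 in escaper 1. Affected dogs had −0.49, −0.02, −0.54 and −0.29, and normal dogs −0.33, −0.41, −0.50 and −0.49. It differed by 1.14 between escapers and affected dogs (SE 0.47, adjusted p = 0.8), and by 0.02 without escaper 2.

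IL12RB2, a chain of the IL12 receptor, had ratios of −0.11, −0.02, −0.03 and −0.07 in affected dogs, 0.10 and −0.28 in escapers and 0.07, −0.04, −0.01 and −0.05 in normal dogs. IL4R, IL7R and IL1R2, the last a decoy receptor of IL1, differed by −0.02, 0.07 and 0.01 between dystrophic and normal dogs, each with a 95% interval that spans 0. A second IL1R2 probe was detected on no normal array, and dystrophic dogs were at least 1.45-fold brighter (adjusted p = 0.445). IL1RN, the natural antagonist of the IL1 receptor, and IL13RA2, a decoy receptor of IL13, were not tested. Both were detected on the 2 arrays of escaper 2, at 1.06 and 1.43, against −0.28 to −0.04 and −0.11 to −0.06 in normal dogs. IL1R1, IL5RA, IL20RA, IL1RAPL1 and the gene that the files call IL1F5 were detected on no array, IL12RB1 and IL2RA on 1, IL2RG on 2, IL27RA on 5 and IL17RC on 6.

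**Figure D4:**
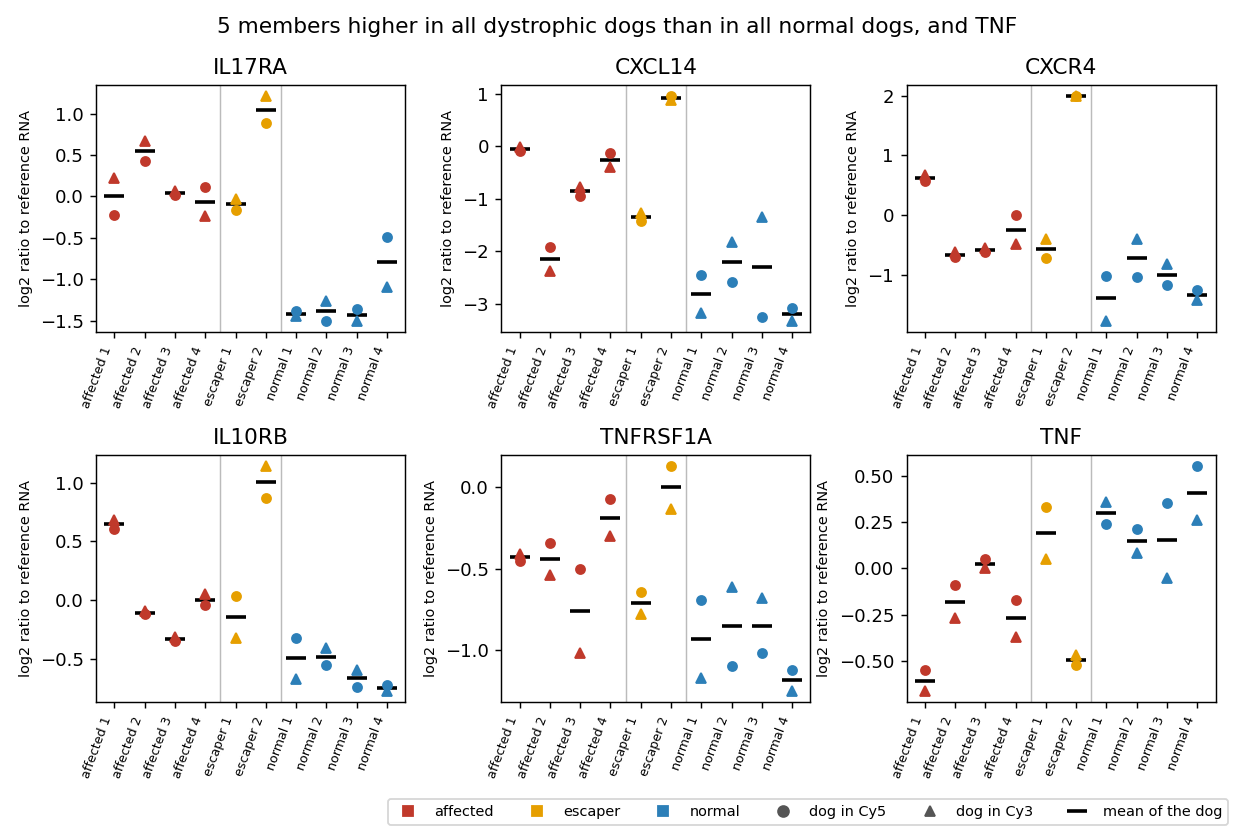
Panels give the log2 ratio to the reference RNA in each dog for IL17RA, CXCL14, CXCR4, IL10RB, TNFRSF1A and TNF, with the dog in Cy5 as circles, in Cy3 as triangles and the mean as a bar. In the first 5 panels the mean bars of all 6 dystrophic dogs lie above those of the 4 normal dogs, by 0.05 for CXCR4 and 0.70 for IL17RA. In the TNF panel the 4 affected dogs lie below the normal ones and escaper 1 lies among them.

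Of 6 TNF ligands 4 were tested. TNF, the cytokine that activates endothelium and macrophages, was the member with the smallest p among those lower in dystrophic dogs. The probe with signal had ratios of −0.61, −0.18, 0.02 and −0.27 in affected dogs, 0.19 and −0.49 in escapers and 0.30, 0.14, 0.15 and 0.40 in normal dogs. Every affected dog had a lower ratio than any normal dog, while escaper 1 lay within the normal range. The difference was −0.51 in affected dogs (SE 0.19, limma adjusted p = 0.337) and −0.47 in dystrophic dogs (SE 0.17, adjusted p = 0.21). Since the probe that shares 42 of its 60 letters was at background on 19 of 20 arrays, as was the remaining one, these values rest on 1 probe.

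TNFSF10, the death ligand TRAIL, was 2.55 in escaper 2, 0.16 to 1.13 in the other 5 dystrophic dogs and −0.22 to 1.02 in normal dogs. TNFSF12-TNFSF13, the joint transcript of TWEAK and APRIL, was 1.70 in escaper 2 and 0.90 in affected 4, against −0.31 to −0.06 in normal dogs. TNFSF9, a costimulatory ligand, differed by 0.22 in dystrophic dogs (SE 0.26, adjusted p = 0.68). TNFSF4 and TNFSF15 were detected on no array.

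Of 8 TNF receptors 3 were tested. TNFRSF1A, the widely expressed receptor of TNF, separated the groups by the means of the dogs. It had ratios of −0.43, −0.44, −0.76 and −0.19 in affected dogs, −0.71 and 0.00 in escapers and −0.93, −0.86, −0.85 and −1.19 in normal dogs. The lowest dystrophic dog, affected 3, was 0.09 above the highest normal dog. Single arrays crossed, with −1.02 in Cy3 of affected 3 and −0.61 in Cy3 of normal 2. The difference was 0.54 in dystrophic dogs (SE 0.17, limma adjusted p = 0.174) and 0.50 in affected dogs (SE 0.19, adjusted p = 0.342). TNFRSF14, the receptor HVEM of lymphocytes, ranged from −1.62 in affected 1 to 2.44 in escaper 2, with −1.17 to −0.06 in normal dogs. TNFRSF8, or CD30, differed by 0.04 (SE 0.15, adjusted p = 0.907). TNFRSF1B, the other receptor of TNF, was detected on no array, TNFRSF11B and TNFRSF25 on 1, and TNFRSF4 on 2. TNFRSF21, or death receptor 6, was detected on 8 and on both arrays of escaper 2 only, at 0.46 there and −0.18 to −0.13 in normal dogs.

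BIRC3, an inhibitor of apoptosis that TNF induces through NF-kappaB, was −4.25, −2.64, −3.95 and −2.32 in affected dogs, −3.44 and −1.12 in escapers and −3.26, −2.78, −4.02 and −3.88 in normal dogs. All 10 dogs lay below the reference, which was detected on 20 arrays, and only affected 2, affected 4 and escaper 2 were above the normal range. In the channel of the dog, BIRC3 was detected on 4 of 8 affected, 2 of 4 escaper and 2 of 8 normal arrays. Most of the normal range is thus at background, and normal 3 had a value on its Cy5 array only. The difference was 0.53 (SE 0.53, adjusted p = 0.614). The name rule also takes 3 genes that are neither cytokines nor their receptors. CCRN4L, or nocturnin, had ratios of 0.07 and 1.23 in escapers, 0.15, −0.10, −0.38 and −0.16 in affected dogs and 0.13, 0.02, 0.17 and 0.04 in normal dogs. It differed by 0.77 between escapers and affected dogs (SE 0.28, adjusted p = 0.8) and by 0.19 without escaper 2. IL4I1, an amino acid oxidase, had ratios of 0.71 and 0.24 in escapers, 1.02, 0.44, 0.53 and 0.51 in affected dogs and 0.21, 0.54, 0.16 and 0.47 in normal dogs, and the kinase CCRK was not tested.

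**Figure D5:**
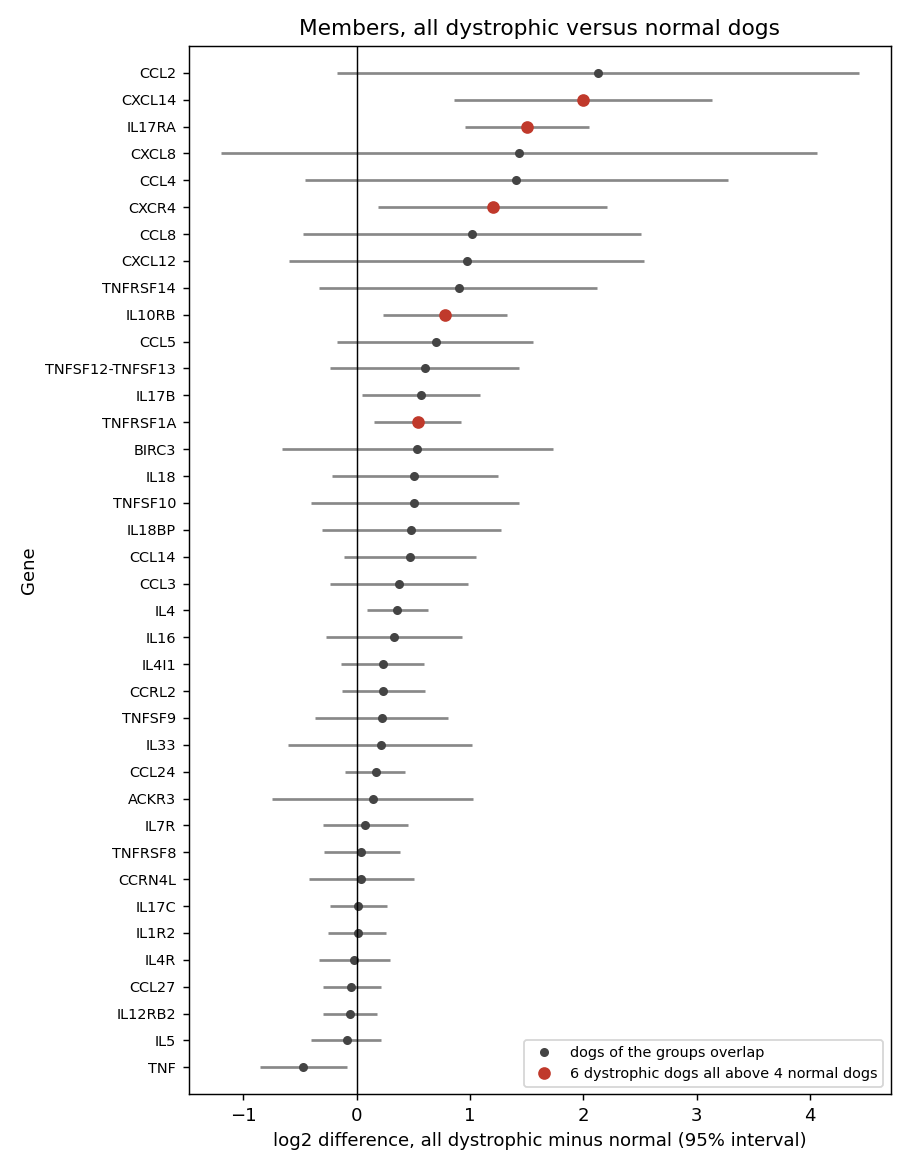
Points give the log2 difference of all dystrophic minus normal dogs for the 38 tested members, with 95% intervals from the limma fit, and red points mark the 5 members whose groups did not overlap. CCL2, CXCL8 and CCL4 have large differences with intervals that reach below 0, IL17RA has a narrow interval from 0.96 to 2.05, and TNF is the lowest point at −0.47.

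The affected dogs alone were set against the normal dogs. Here 28 of 38 differences were above 0 (73.7%, against 53% of all probes). Their median was 0.24, against 0.02 for all probes, and 0.09 without affected 4. No member was called (limma), the smallest adjusted p was 0.125, and 3 probes of any kind were called (0.0187%). At an unadjusted p under 0.05, 4 members were higher and 1 lower (13.2%), where 5.06% of all probes were higher and 7.38% lower (12.4%). The groups did not overlap in 5 members above and 1 below (15.8%), where 5.28% of all probes lay above and 7.42% below (12.7%). In affected 1, 17 of 38 members lay below all 4 normal dogs (44.7%, against 37.1% of all probes). There were 3 such members in affected 2 (7.89%, against 26.9%), 6 in affected 3 (15.8%, against 27.2%) and 6 in affected 4 (15.8%, against 35.1%).

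In escapers against normal dogs the median of the members was 0.70, with 35 of 38 above 0 (92.1%, against 49.8% of all probes), and the smallest adjusted p was 0.179, with no probe of any kind called (0%). At an unadjusted p under 0.05, 13 members were higher and none lower (34.2%), where 9.67% of all probes were higher and 8.78% lower (18.4%). The groups did not overlap in 11 members above and 1 below, IL5, at background in escapers (31.6%), where 14.5% of all probes lay above and 15.7% below (30.2%). Without escaper 2 the median was 0.09.

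Escapers against affected dogs is the comparison within the disease. The median was 0.44 with 31 of 38 above 0 (81.6%, against 49% of all probes), and −0.14 without escaper 2. No member and no probe of any kind was called by limma (0%), and the smallest adjusted p was 0.8. An unadjusted p under 0.05 was reached by 3 members, all higher, CCL24, CCRN4L and IL18BP (7.89%, where 2.95% of all probes were higher and 2.26% lower, 5.22% in all). Escapers and affected dogs did not overlap in CCL24 and IL4 (by its 1 bright probe), where the escapers lay above (5.26%, where 3.69% of all probes lay above and 4.15% below, 7.84% in all). CCL24 entered the tests through the escapers alone. For IL4 the lower escaper had 0.16 and the highest affected dog 0.15. Their arrays crossed, with 0.22 and 0.10 in escaper 1 and 0.07 and 0.24 in affected 2. The comparisons share dogs and are not independent.

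The genes that carry these signals inside the cell were listed apart. Of 37 NF-kappaB genes 23 were on the array and 13 tested. All 13 differences of dystrophic and normal dogs were above 0 (against 52.8% of all probes). Their median was 0.23, against 0.02 for all probes. None had an unadjusted p under 0.05, where 18.1% of all probes had one. The mean log2 ratio of the 13 was 0.13, −0.33, −0.54 and −0.34 in affected dogs and −0.39 and 0.55 in escapers. It was −0.32, −0.42, −0.49 and −0.45 in normal dogs, so only affected 1 and escaper 2 lay above all of these. NFKBIZ, a co-regulator of IL6, differed by 1.0 (SE 0.67, adjusted p = 0.444). TNFAIP3, the feedback inhibitor A20, differed by 0.45 (SE 0.31, adjusted p = 0.452) and MYD88, the adaptor of IL1 receptors, by 0.23 (SE 0.13, adjusted p = 0.373). Against normal dogs, these differences were 0.38, 0.16 and 0.18 in affected dogs and 2.22, 1.02 and 0.34 in escapers. The SD of the escapers was 3.14, 1.22 and 0.21, against 0.15, 0.08 and 0.17 in normal dogs. The 2 escapers thus lay far apart in NFKBIZ and TNFAIP3. Of 27 JAK-STAT genes 14 were tested, with 10 above 0 (against 52.8% of all probes) and a median of 0.08. An unadjusted p under 0.05 was reached by 1 of the 14, where 18.1% of all probes reached it. This was SOCS5, an inhibitor of cytokine signalling (0.34, SE 0.14, adjusted p = 0.259).

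Of 47 related receptors and ligands outside the name rule 10 were tested. At an unadjusted p under 0.05, 3 were higher and 2 lower, where 8.29% of all probes were higher and 9.82% lower (18.1%). SPP1, or osteopontin, a cytokine of macrophages and a known modifier of dystrophy, differed by 4.02 in dystrophic dogs (SE 0.96, adjusted p = 0.128). IFNAR1, a chain of the type I interferon receptor, differed by 0.86 (SE 0.26, adjusted p = 0.167). LIFR, the receptor of LIF, and LTA, or lymphotoxin alpha, differed by −0.31 and −0.30 (SE 0.12 each, adjusted p = 0.239 and 0.24).

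Macrophage and fibroblast markers were highest in escaper 2 and affected 4, which also had the highest ratios of CCL2, CCL4, CCL8 and CXCL12. All 12 tested macrophage markers of 20 listed had a difference of dystrophic and normal dogs above 0. Their median was 0.95, against 0.02 for all probes. An unadjusted p under 0.05 was reached by 7, all higher, where 8.29% of all probes were higher at that p (18.1% in either direction), and none of the 12 was called by limma (LGALS3 2.51, adjusted p = 0.073). The mean log2 ratio of the 12 was −1.10, −0.83, −0.92 and 0.03 in affected dogs, −1.12 and 1.17 in escapers and −1.50, −1.31, −1.24 and −1.60 in normal dogs. The macrophage marker ADGRE1 was detected on no array. The 9 fibroblast markers had means of −0.95, −0.16, 0.49 and 1.14 in affected dogs, −0.09 and 2.10 in escapers and −0.95 to −0.49 in normal dogs. The 8 endothelial markers had a mean of 0.92 in escaper 2 and −0.44 to 0.10 in the other 9 dogs. For T and NK cells 1 of 11 markers on the array, NKG7, was tested, and CD8A was detected on no array. NKG7, a granule protein of cytotoxic lymphocytes, had ratios of −2.40, −0.44, 0.30 and −0.40 in affected dogs, 0.70 and −1.33 in escapers and 1.18, 0.48, 0.49 and 0.75 in normal dogs. It differed by −1.32 in dystrophic dogs (SE 0.53, unadjusted p = 0.0338, limma adjusted p = 0.241), the opposite direction to the macrophage markers. None of the B cell, dendritic cell or red cell markers was tested, and CD79A, MS4A1 and FLT3 were detected on no array. The part of these cells in the member differences was not tested.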

How the data were processed

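Muscle RNA of 4 affected, 2 escaper and 4 normal dogs was measured on 20 canine Agilent arrays with 2 colours, 2 per dog with swapped dyes against a common reference. The deposited scanner files, made with Feature Extraction 9.5.3.1, hold mean and local background intensity of each spot in both channels, with flags for saturation, outliers and signal over background, per the file headers. Log2 ratios of dog over reference make up the deposited value table, whose processing is not given in the sources used here. The table matched the ratio of the processed signals of each array (r = 1), so its scale and direction are known. Its column medians, from −0.16 to 0.25, are not centred, for a reason that is unknown, and it served as an alternative.

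Intensities were corrected with normexp in limma 3.58.1 (R 4.3.3) at an offset of 50 and normalised by loess within each array, with control spots at weight 0. Control and outlier-flagged spots were then left out and saturated ones kept. Every ratio was expressed as dog over reference, and the mean of the 2 arrays of a dog entered the tests as 1 replicate. Of 42034 probes, 16130 had signal well above background for both arrays of 2 or more dogs, and 16008 of these had a value in every dog and were tested. All 10 dogs entered 1 limma fit with 3 groups that share an estimate of the spread. Its 4 contrasts were adjusted by Benjamini-Hochberg over all tested probes (threshold 0.05), and the contrast of all dystrophic dogs weights the 6 dogs equally. The fit was tested on simulated data. The labels name separate dogs without saying how they are related, and p-values measure the spread between these dogs. The number of dogs limits the precision, since the 2 arrays of a dog enter as 1 value.

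Symbols were updated by a gene table of assembly UU_Cfam_GSD_1.0, which served for names alone and left 11051 probes with a symbol and 30983 without. A gene is represented by its brightest tested probe. Genes given with the value of every dog are those with the 3 smallest p in each direction in each comparison and those whose 6 dystrophic dogs do not overlap the 4 normal dogs. Every tested member is named. CCL2, CCL3, CCL4, CCL8, CXCL8, CXCL12, IL4, IL6 and BIRC3 were added to these after their values were seen, as were the repeated IL17RA letters and the pathway genes and markers named with values. Members and lists were chosen with earlier results of these data known. Alternatives covered the value table, background, normalisation, filter, slide block, variance model, dye, probes and left-out dogs. Probe sequences are those of the array files.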

Additional observations from a re-analysis of the deposited data

Results flagged for a closer look

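In groups of 4 dogs, a dog was singled out where its gap to the nearest other dog took up most of the range of the group. Of 76 groups examined, 5 had such a dog, and chance gives about 1 in 20. IL18 had a log2 ratio of 1.08 in affected 4, against −0.13 to 0.06 in the other affected dogs, and IL4I1 had 1.02 in affected 1, against 0.44 to 0.53. Among normal dogs, IL17RA had −0.79 in normal 4, against −1.43 to −1.38 in the others. CCL27 had 0.25 in normal 1, against 0.00 to 0.03, and CCL3 had 0.16 in normal 4, against −0.08 to −0.04. The 2 arrays of normal 1 gave 0.08 and 0.41 for CCL27, and CCL3 was detected on 2 of 8 normal arrays.

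Among the members left out of the tests, 7 had a probe with signal well above background on both arrays of a dystrophic dog and on no normal array. In escaper 2 these were IL6 at a log2 ratio of 4.08, IL1A at 1.59, IL1B at 1.57, IL13RA2 at 1.43, IL1RN at 1.06 and CCL7 at 0.62, while the highest normal values of these 6 genes were 0.02, 0.29, 0.19, −0.06, −0.04 and 0.02. In affected 1 it was CCL21 at 0.51, against at most 0.20 in normal dogs, and a second CCL21 probe was detected on 1 normal array.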

How the results depend on the processing

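No member was called in any comparison as reported, and the count moved as follows. In all dystrophic against normal dogs, 3 members passed with the deposited value table, 1 without background correction, 5 with scaling between arrays, 3 with a random slide block and 0 to 9 with a dog left out. In affected against normal dogs, 1 passed with the slide block and 1 with the 2 groups alone, and 0 to 1 with a dog left out. In escapers against normal dogs 3 passed with the slide block and 0 to 23 with a dog left out, and in escapers against affected dogs 0 to 13 with a dog left out. The highest counts are those without escaper 1, which rest on escaper 2 as a lone sample taken to vary as much as the other groups. The slide block had a correlation of −0.271, below 0, which narrows the errors. IL17RA, the member called most often, ranged from 0.91 to 2.29 in dystrophic against normal dogs, with adjusted p from 0.00777 to 0.232 over 23 alternatives.

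The median of the members moved to 1.22 (escapers against normal) and 0.77 (all dystrophic) with the value table, to 1.28 and 0.93 (escapers against normal and against affected) without escaper 1, and to 0.09 and −0.14 without escaper 2. Without affected 4 and escaper 2 it was 0.09 in all dystrophic and in escapers against normal, and −0.08 in escapers against affected dogs. Signs turned in 13 cases. Against normal dogs in escapers, CXCL8 became −0.44 and CCL8 −0.08 both without escaper 2 and without affected 4 and escaper 2, and IL12RB2 became 0.11 in both and 0.06 with the dog in Cy5 only. Escaper 1 and the normal dogs had neither CXCL8 nor CCL8 above background, so these 2 signs carry no order. With a dog left out these 3 ranged from −0.44 to 7.44, −0.08 to 3.46 and −0.27 to 0.11. CCL27 became 0.09 in affected against normal dogs with the dog in Cy3 only. In escapers against affected dogs, IL33 became 0.16 without affected 4 and 0.15 without escaper 1 (range −0.65 to 0.16), IL4I1 0.08 without escaper 2 (range −0.39 to 0.08) and 0.05 without affected 4 and escaper 2, and IL5 0.03 without these 2 dogs. The cause was not tested.

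Over all probes, 3 were called in affected against normal dogs. The count was 31 with the value table, 19 without background correction, 69 with scaling, 114 with the slide block, 113 with the 2 groups alone, 7 in Cy5, 1 in Cy3 and 0 to 113 with a dog left out. In all dystrophic dogs 21 were called, and 224, 69, 1350 and 1003 under the first 4 of these, 8 in Cy5, 1 in Cy3, 3 with median centring or with no filter, 6 with trend and robust variance, 2 without the Cy5 array of affected 4, and 0 to 1418 with a dog left out. In escapers against normal dogs 0 were called, and 4 with the value table, 4 with scaling, 522 with the slide block and 0 to 3921 with a dog left out. In escapers against affected dogs 0 were called, and 0 to 1755 with a dog left out. No paired analysis was possible because the labels state no pairing between dogs of different groups. Dim members limit what can be read: 62 of 100 could not be tested, and 32 of the 36 untested genes seen on exactly 1 affected array were seen on the Cy5 array of affected 4.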
